A study of Homo sapiens with 12 samples.

Results

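The P2X receptors are the family of ATP-gated cation channels encoded by P2RX1 to P2RX7. All 7 genes were taken by symbol from the 48114 genes of the deposited tables, and each matched 1 row. The family was selected on measured values of these same libraries, since it was proposed after the knockdown and cell line contrasts had been computed. The levels of its members are therefore a description, and no p-value is given for any of them.

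A P2X channel is a trimer of subunits, each with a pair of membrane-spanning segments, a large extracellular domain that binds ATP and both ends inside the cell. ATP released from stressed, dying or mechanically stimulated cells opens the channel within milliseconds and lets sodium and calcium in. Subunits combine in homomeric or heteromeric trimers, so that which genes a cell transcribes bears on which channels it can build. In epithelial and tumor tissue the family is known for calcium signalling, secretion and, through P2X7, the activation of the inflammasome.

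RNA was measured by polyA-selected RNA sequencing in 12 libraries from established lines of pancreatic ductal adenocarcinoma (PDAC). PANC-1, a line used as a model of the basal-like PDAC subtype, was transfected with a control siRNA (siCtrl), with siRNA to QKI (siQKI) or with siRNA to RBFOX2 (siRBFOX2), with 3 libraries per group, and collected at 48 h. The labels give 40 nM for the QKI and RBFOX2 siRNAs. HPAF-II, a line used as a model of the classical subtype, received siCtrl alone (3 libraries), so neither knockdown was measured in it, and each subtype is represented by 1 line. QKI and RBFOX2 are RNA-binding proteins that regulate splicing, and the comparisons address how their depletion, and the difference between the lines, bear on RNA levels. Nothing in the labels says that the libraries of a group came from separate experiments, so errors describe the spread between libraries.

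Values in PANC-1 groups are given as normalized counts, that is, counts of a gene after division by the library's size factor, as the authors deposited them. The PANC-1 and HPAF-II tables were normalized apart. Where the lines are set side by side, every library was scaled to sum to 1000000, and these values are called rescaled counts. The deposited values do not show how many fragments lie behind them. QKI fell from 25533 ± 869 normalized counts in siCtrl to 5034 ± 412 in siQKI cells (SD, n = 3 each), 19.7% of the control (log2 fold change -2.34, SE 0.06, limma adjusted p = 9.15e-13), and RBFOX2 fell from 15429 ± 76.8 to 2095 ± 352 in siRBFOX2 cells, or 13.6% (-2.89, SE 0.09, limma adjusted p = 4.70e-11). Each knockdown also went with a shift of the other target. RBFOX2 was lower in siQKI cells (12642 ± 129) and QKI higher in siRBFOX2 cells (28016 ± 1149 normalized counts), neither overlapping siCtrl. Over the 3 PANC-1 groups, the 5 epithelial markers KRT8, KRT18, KRT19, EPCAM and CDH1 summed to between 2128 and 2711 rescaled counts. Their sum lay between 10285 and 10696 for HPAF-II. In PANC-1 siCtrl cells it was mostly keratin, with means of 1243 for KRT8, 859 for KRT18 and 460 for KRT19. EPCAM (13.8) and CDH1 (2.87) were low there, against means of 423 and 196 for HPAF-II. CDH1 measured 987 ± 16.3 normalized counts in siCtrl, 2610 ± 382 in siQKI and 1431 ± 107 in siRBFOX2 cells. HPAF-II replicate 3 stood apart from its group. Over 13865 genes that averaged 1 rescaled count or more, its median log2 difference, sign dropped, was 0.37 to replicate 1 and 0.41 to replicate 2, against 0.14 between replicates 1 and 2 and 0.07 to 0.11 within the PANC-1 groups. It was also closer to the PANC-1 siCtrl libraries (0.72 to 0.74) than replicates 1 and 2 were (0.84 to 0.89). The family's shares, the ratios of P2RX4 and P2RX5 and the counts between the lines are therefore also given without it.

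The sequence letters that the depleted proteins are known to prefer were looked for in the members' mature transcripts. Binding of either protein was not measured in these libraries. The longest coding transcript of each gene in GENCODE release 29 (build GRCh38) was read on its sense strand. It was searched for ACTAAC, a form of the core of the QKI response element, and TGCATG, the RBFOX motif, letters that cannot overlap each other. The sites in P2RX2, P2RX4 and P2RX6 are shown, the 3 members whose libraries all lay above the controls in at least 1 knockdown. That knockdown was siQKI for P2RX2, siRBFOX2 for P2RX4 and either of them for P2RX6. The motif is in capitals with 12 bases on either side, and every site is on the plus strand and within 1 exon.
P2RX2, coding sequence, chr12:132621323-132621352: ttgacgtcattgTGCATGgacaggtgcctg
P2RX4, coding sequence, chr12:121233018-121233047: atagtcctctacTGCATGaagaaaagactc
P2RX6, 3' UTR, chr22:21026866-21026895: cagggctccgacTGCATGtggcaggggctc
P2RX6, 3' UTR, chr22:21028343-21028372: tgcctgcagggaTGCATGtgtccccgtggg
P2RX6, 3' UTR, chr22:21028387-21028416: gcaggcctcaggTGCATGccatgctcagaa

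P2RX6 held 3 TGCATG sites, and P2RX2 and P2RX4 held 1 each. At least 1 TGCATG was present in 60.4% of the 2087 transcripts within 10% of the length of the P2RX6 transcript, in 35.0% of 1813 for P2RX2 and in 37.8% of 1995 for P2RX4. The share of transcripts with 3 sites was not counted. None of the 3 transcripts held ACTAAC, which 27.0%, 12.2% and 13.5% of the transcripts of like length did. ACTAAC occurred once in P2RX3, at chr11:57370474-57370503, and once in P2RX7, at chr12:121186210-121186239, in both within the 3' UTR. Of the transcripts of like length, 12.5% held it for P2RX3 and 36.7% for P2RX7.
P2RX3, 3' UTR: aacgtccgtctgACTAACtccatcgcccac
P2RX7, 3' UTR: attctggactccACTAACatatgactgata
The transcripts of P2RX1 and P2RX5 held neither motif. Of the transcripts of like length, 17.5% and 14.4% held ACTAAC, and 48.8% and 42.9% held TGCATG. These letters are a description of the mature sequence only. Introns, where both proteins also bind, were not read, and other forms of the QKI motif were not searched for.

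P2RX5 and P2RX4 made up almost all P2X receptor RNA in both lines, and their order was turned around between them. To compare genes, rescaled counts were divided by the kb of exon of each gene (from 1.873 kb for P2RX3 to 5.113 kb for P2RX7), and shares are of the family's sum on this scale. In PANC-1 siCtrl cells P2RX5 held 68.4% ± 3.02 of the sum, P2RX4 28.3% ± 2.61 and P2RX2 3.16% ± 0.807 (SD, n = 3). In HPAF-II cells P2RX4 held 71.8% ± 2.46 and P2RX5 28.1% ± 2.45, and P2RX2 was listed at 0. The shares did not overlap between the lines, the P2RX4 share being 26.5% to 31.3% in PANC-1 and between 69.0% and 73.4% in HPAF-II. Without HPAF-II replicate 3 the mean shares in HPAF-II were 73.2% for P2RX4 and 26.7% for P2RX5.

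**Figure D1:**
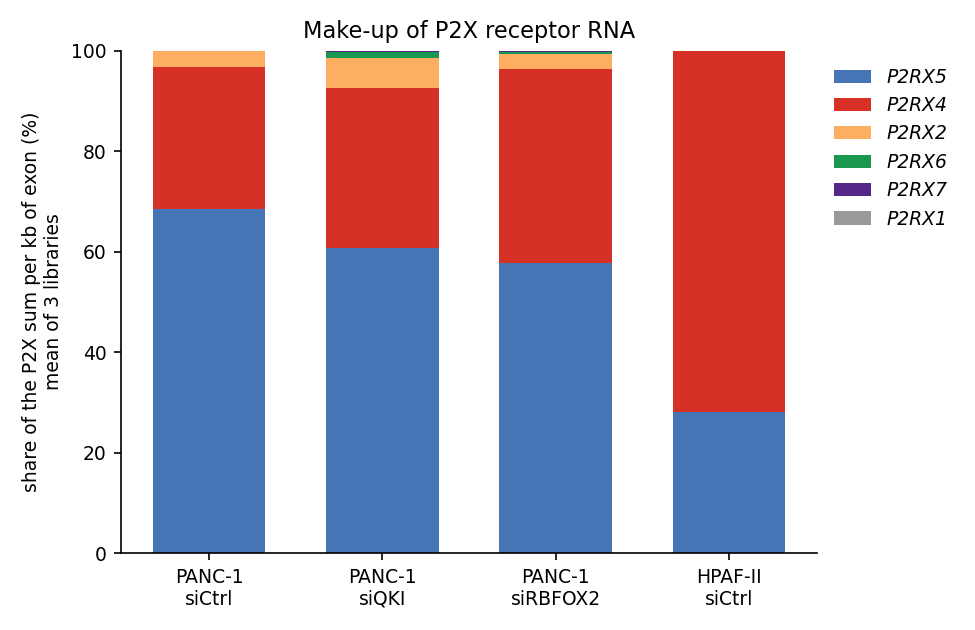
Mean share (%) of each P2X gene in the family's sum of rescaled counts per kb of exon, stacked for the 3 PANC-1 groups and HPAF-II siCtrl (3 libraries each; P2RX3 is listed at 0 throughout). P2RX5 is the largest block in PANC-1 siCtrl (68.4%) and P2RX4 in HPAF-II (71.8%).

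The family's sum was 10.4 ± 0.759 rescaled counts per kb in PANC-1 siCtrl and 22.6 ± 1.44 in HPAF-II cells, and it stayed near the PANC-1 control level after either knockdown, with 10.9 ± 0.785 in siQKI and 10.9 ± 0.221 in siRBFOX2 cells. Within that sum, P2RX5 held 60.8% ± 1.18 in siQKI and 57.8% ± 2.49 in siRBFOX2 cells, below the lowest control share of 65.2% in every library. The P2RX4 share was 31.8% ± 0.845 in siQKI and 38.5% ± 2.44 in siRBFOX2 cells. P2RX2 reached 5.87% ± 0.407 and P2RX6 1.24% ± 0.602 in siQKI cells.

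Levels per library were compared next, beginning with P2RX4 (GSHG0009556, chr12:121209857-121234106, plus strand, hg38), a subunit that sits largely in lysosomes and the plasma membrane and forms calcium-permeable channels in many epithelia. Its rescaled counts were 5.37, 7.18 and 5.82 in PANC-1 siCtrl replicates 1 to 3 and 31.9, 35.5 and 34.0 in HPAF-II. Every HPAF-II library was thus above every PANC-1 library, also those of the knockdowns. The HPAF-II mean was 5.52 times the PANC-1 control mean (log2 ratio 2.47, SE 0.13), and 5.50 times without HPAF-II replicate 3. In bulk RNA, more cells that express a gene and more RNA per cell cannot be told apart.

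P2RX5 (GSHG0018761, chr17:3673227-3696404, minus strand) encodes a subunit for which a common human transcript variant lacks an exon and gives a poorly functional channel. Gene values do not tell such variants apart. Its rescaled counts were 16.5, 18.1 and 18.9 in PANC-1 siCtrl and 14.2, 15.5 and 18.5 in HPAF-II, and the lines overlapped (log2 ratio -0.16, SE 0.12). The highest HPAF-II value was that of replicate 3, and without it the HPAF-II libraries lay below all PANC-1 control libraries (log2 ratio -0.26). The other order of P2RX4 and P2RX5 in HPAF-II thus went with a higher P2RX4 level, while P2RX5 differed little.

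P2RX2 (GSHG0009653, chr12:132618776-132622388, plus strand), best known for fast ATP responses in sensory neurons and the inner ear, was measured in all 9 PANC-1 libraries, at 0.469 to 0.749 rescaled counts in siCtrl, and was listed at 0 in all 3 HPAF-II libraries. No fold is given against a value of 0. P2RX6 (GSHG0028427, chr22:21015153-21028830, plus strand) was likewise listed at 0 in HPAF-II cells, and its PANC-1 control level of 0.0153 ± 0.00188 rescaled counts was too low for that difference to be counted. P2RX7 ranged from 0 to 0.105 in PANC-1 siCtrl and from 0.00798 to 0.128 in HPAF-II, and the lines overlapped.

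**Figure D2:**
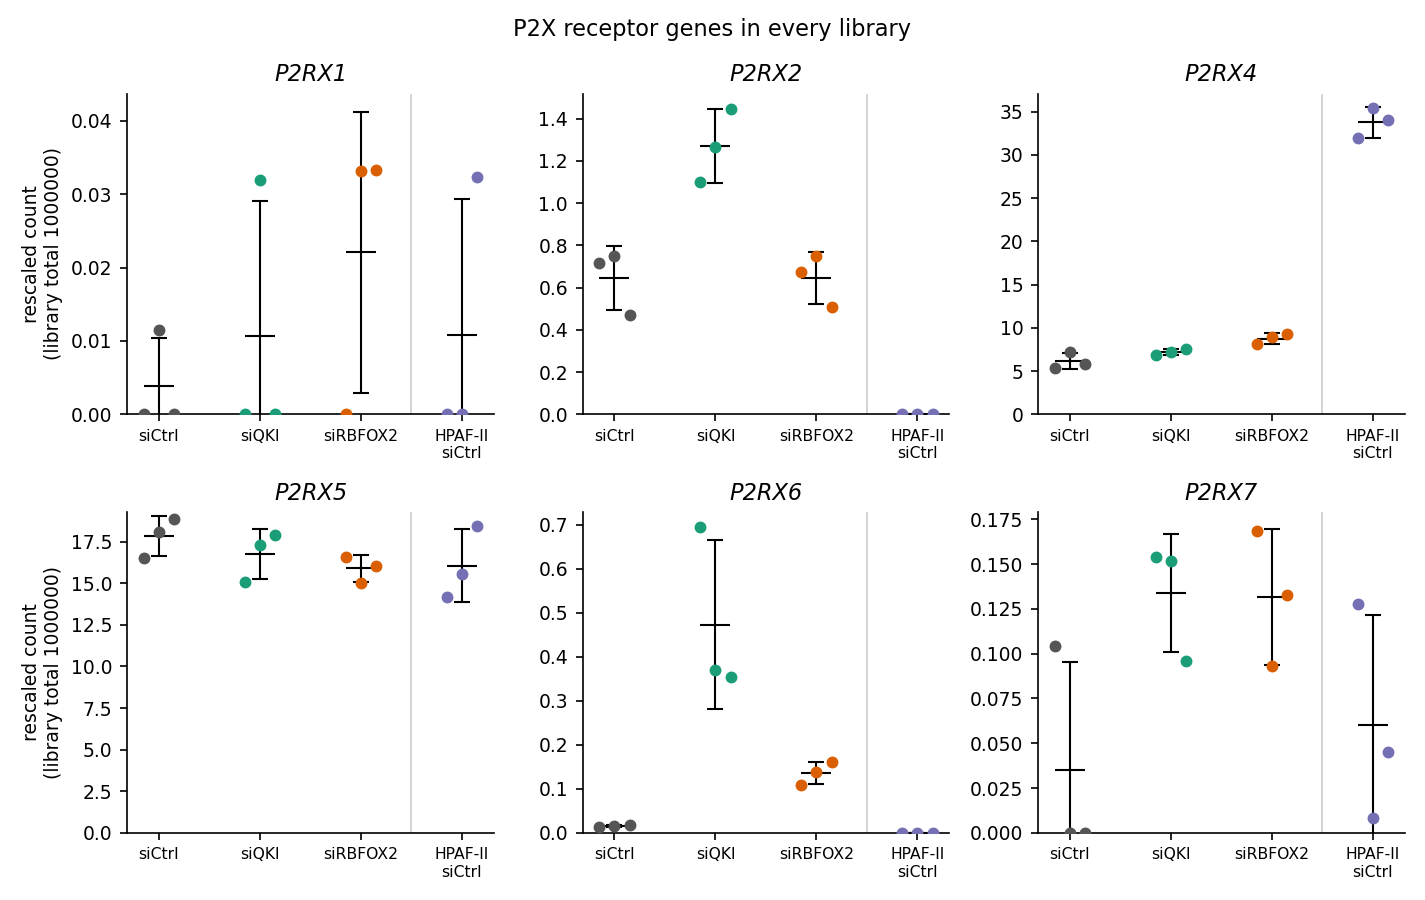
Rescaled counts (library total 1000000) of 6 P2X genes in every library, in 3 PANC-1 groups (siCtrl, siQKI, siRBFOX2) and, right of the grey line, HPAF-II siCtrl, with horizontal bars for the mean and vertical bars for the SD (n = 3); each panel has its own linear axis from 0, and bars that reach below 0 are clipped. P2RX4 is highest in HPAF-II (31.9 to 35.5), whereas P2RX2 and P2RX6 are highest in siQKI and at 0 in HPAF-II.

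In 1 of the control groups at least, 4 of the 7 members averaged 10 normalized counts or more, and 2 of these did not overlap between the lines, 1 higher (P2RX4) and 1 lower (P2RX2) in HPAF-II. Over the 24673 genes that passed the same filter, 63.7% did not overlap (32.00% higher and 31.7% lower in HPAF-II). Without HPAF-II replicate 3, 3 of the 4 members did not overlap, with P2RX5 lower as well, beside 75.4% of all genes. The shares among the members are not read against those of all genes, because the contrast was in view when the family was proposed. No test was run between the lines, since their tables were normalized apart and line and table cannot be told apart.

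QKI depletion went with higher P2RX6 and P2RX2. P2RX6 encodes a subunit that scarcely forms channels by itself and joins P2X2 or P2X4 subunits. It measured 4.79, 5.00 and 6.04 normalized counts in siCtrl and 231, 121 and 116 in siQKI replicates 1 to 3. The lowest siQKI library was far above the highest control, and siQKI replicate 1 stood well above the other two. The siQKI mean of 156 ± 65.1 was 29.7 times the siCtrl mean of 5.27 ± 0.669 (SD, n = 3). On the log2(normalized count + 1) scale, which understates changes of low genes, the difference was 4.58 (SE 0.57), and 4.26 without siQKI replicate 1. The control level is near the floor of the measurement, so that the size of the ratio rests on a few counts per control library.

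P2RX6 was also higher after RBFOX2 depletion, at 36.8, 44.6 and 53.7 normalized counts, a mean of 45.0 ± 8.47 or 8.54 times the control, and a log2 difference of 2.86 (SE 0.57). The 3 groups did not overlap with each other, in the order siCtrl, siRBFOX2, siQKI. Both knockdowns were set against the same 3 control libraries.

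Of the genes next to P2RX6, 1 moved with it after QKI depletion. TUBA3FP, a tubulin pseudogene that ends 865 bases before the P2RX6 interval of the files, measured 424, 492 and 546 normalized counts in siCtrl, 983, 843 and 656 in siQKI and 521, 467 and 659 in siRBFOX2 cells. It rose after QKI depletion (log2 fold change 0.75, SE 0.18, limma adjusted p = 0.00471), and no change past the threshold was seen after RBFOX2 depletion (0.16, SE 0.18, limma adjusted p = 0.578). For each library, P2RX6 amounted to 1.08% ± 0.0593 of the TUBA3FP value in siCtrl, 18.6% ± 4.64 in siQKI and 8.26% ± 1.24 in siRBFOX2 cells, with no overlap between these groups, so P2RX6 moved by more than its neighbor. In GENCODE the P2RX6 gene begins upstream of the interval of the files and overlaps TUBA3FP. Whether counts were made by strand is not stated, and the part of transcripts shared between both genes was not tested. THAP7-AS1, 4779 bases away, was not past the threshold in siQKI (log2 fold change 0.21, SE 0.18, limma adjusted p = 0.431) or siRBFOX2 cells (0.16, SE 0.18, limma adjusted p = 0.589). SLC7A4, which overlaps P2RX6 by 793 bases, was listed at 0 in every library.

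P2RX2 measured 242, 261 and 162 normalized counts in siCtrl and 366, 415 and 475 in siQKI cells. All siQKI libraries were higher than all control libraries, and the mean was 419 ± 54.5 against 222 ± 52.5, 1.89 times the control (log2 difference 0.94, SE 0.24). In siRBFOX2 cells P2RX2 measured 227, 241 and 170, which overlapped the control (log2 difference -0.04, SE 0.24) and lay below every siQKI library. POLE, 1369 bases away, differed by 0.11 on the log2 scale in siQKI cells (SE 0.04, limma adjusted p = 0.0632).

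P2RX4 was higher after RBFOX2 depletion. It measured 1819, 2501 and 2010 normalized counts in siCtrl and 2726, 2876 and 3088 in siRBFOX2 cells, with no overlap and 1.37 times the control mean (2897 ± 182 against 2110 ± 352, log2 difference 0.47, SE 0.10). In siQKI cells the values were 2289, 2377 and 2484, inside the range of the controls, of which replicate 2 was the highest (log2 difference 0.19, SE 0.10). Without siCtrl replicate 2 the siQKI libraries lay above the remaining controls, with a difference of 0.32. The neighboring CAMKK2, a calcium/calmodulin-dependent kinase kinase 3585 bases away, rose in both knockdowns (log2 fold change 0.29, SE 0.06, limma adjusted p = 0.00165 in siQKI, and 0.27, SE 0.06, limma adjusted p = 0.00430 in siRBFOX2 cells). Even after RBFOX2 depletion P2RX4 in PANC-1 stayed at 8.76 ± 0.590 rescaled counts, against 33.8 ± 1.79 in HPAF-II.

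P2RX5, the most abundant member per kb of exon in PANC-1, was slightly lower in both knockdowns. It measured 5607, 6300 and 6519 normalized counts in siCtrl, 5027, 5673 and 5882 in siQKI and 5589, 4835 and 5362 in siRBFOX2 cells. The siQKI libraries overlapped the controls (log2 difference -0.15, SE 0.08), whereas the highest siRBFOX2 library lay just under the lowest control (5589 against 5607, log2 difference -0.22, SE 0.08). This gap was closed when each library was rescaled to the same total, with 16.6 in the highest siRBFOX2 and 16.5 in the lowest siCtrl library, so the separation of P2RX5 depended on the scaling. Without siCtrl replicate 1 the siQKI libraries of P2RX5 also lay below the remaining controls, with a log2 difference of -0.22. EMC6, 3561 bases away, fell in both knockdowns (log2 fold change -0.23, limma adjusted p = 0.0101, and -0.33, limma adjusted p = 0.00111). TAX1BP3, which GENCODE joins to P2RX5 in a readthrough gene, fell in siQKI cells (-0.18, SE 0.05, limma adjusted p = 0.00779) and gave -0.08 in siRBFOX2 cells, not past the threshold (limma adjusted p = 0.226).

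P2RX7 (GSHG0009555, chr12:121132876-121188032, plus strand) encodes the subunit that opens at high ATP and is tied to interleukin release. It measured 35.4, 0 and 0 normalized counts in siCtrl, 51.3, 49.7 and 31.5 in siQKI and 56.8, 30.02 and 44.5 in siRBFOX2 cells. Both knockdowns overlapped the control through siCtrl replicate 1 alone, and without that library the log2 differences went from 3.74 to 5.46 (siQKI) and from 3.71 to 5.44 (siRBFOX2). With control libraries at 0 these sizes depend on the pseudocount and set no bound.

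P2RX1 and P2RX3 were at or near the floor of the measurement. P2RX1 (GSHG0018766, chr17:3896592-3916502, minus strand), the channel of platelets and smooth muscle, was above 0 in 5 of 12 libraries, at 3.998 to 11.1 normalized counts, in at least 1 library of each group. P2RX3 (GSHG0006198, chr11:57338352-57372396, plus strand), a channel of pain-sensing neurons, was listed at 0 in all 12 libraries. The platelet markers ITGA2B, GP9 and PF4 summed to 0.952 to 1.025 rescaled counts in siCtrl, 1.43 to 2.83 in siQKI and 1.05 to 2.46 in siRBFOX2 cells. Nearly all of this was ITGA2B. In HPAF-II the sum was 0.0479 to 0.972, with a mean of 0.461 for PF4 and 0.160 for ITGA2B. GP9 was listed at 0 throughout, and the part of these markers in the knockdown values was not tested. PTPRC, which all leukocytes express, was at 0 in the siCtrl, siQKI and HPAF-II groups and at 8.32 ± 10.7 normalized counts in siRBFOX2 cells. CD68 made up most of the leukocyte list's sum of 118 to 171 rescaled counts in PANC-1. ITGAM measured 667 ± 51.7 normalized counts in siCtrl, 463 ± 54.5 in siQKI and 712 ± 15.8 in siRBFOX2 cells. In the same order CD14 measured 427 ± 114, 330 ± 42.4 and 346 ± 137, and CSF1R 30.01 ± 33.4, 22.4 ± 16.3 and 59.03 ± 66.6.

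Over the family, 5 of 7 members (P2RX2, P2RX4, P2RX5, P2RX6 and P2RX7) passed the filter of a mean of 10 normalized counts over the PANC-1 libraries, which P2RX6 met only through the knockdown libraries. After QKI depletion 2 of these 5 did not overlap the control, both higher, beside 44.7% of the 22544 genes tested. After RBFOX2 depletion 3 of 5 did not overlap, 2 higher and 1 lower, beside 37.9%. Nothing is read from these shares, since the rule used both contrasts. By limma, 14.9% of all genes were called higher and 18.1% lower in siQKI cells, and 12.03% and 14.5% in siRBFOX2 cells, at an adjusted p under 0.05. The split depended on the scaling: with upper-quartile rescaling 4225 genes were higher and 3057 lower in siQKI cells, instead of 3362 and 4070, and with equal totals 3454 were higher and 2290 lower in siRBFOX2 cells, instead of 2713 and 3272.

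The genes whose profile was most like a member's were sought for P2RX2, whose group means spanned the widest range (6.99 on the log2 scale of rescaled counts, with a pseudocount of 0.01 that sets the distance to the HPAF-II value of 0). Over 19753 genes and all 12 libraries, the smallest root mean square differences of centred log2 values were those of GP1BB (0.260), RCSD1 (0.260) and ENHO (0.264). GP1BB, a platelet glycoprotein gene, measured 0.692 ± 0.233 rescaled counts in siCtrl, 1.22 ± 0.309 in siQKI and 0.790 ± 0.0644 in siRBFOX2 cells and was listed at 0 in HPAF-II. RCSD1, an actin capping protein regulator, measured 0.693 ± 0.0521, 1.66 ± 0.229 and 0.700 ± 0.115, and ENHO, the precursor of the peptide adropin, 0.716 ± 0.148, 1.75 ± 0.202 and 0.771 ± 0.138, both with 0 in HPAF-II. All 3 genes shared with P2RX2 the value of 0 in HPAF-II and a higher mean in siQKI cells. Their siCtrl levels were also near that of P2RX2 (0.644 ± 0.153). With the pseudocount, a value of 0 in HPAF-II makes the distance depend on the PANC-1 level. Which of these made the likeness was not tested, and both contrasts were in view when the family was proposed.

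The rest of the purinergic pathway was read from 41 further genes, none of them a P2X receptor, that release ATP, break it down, sense its products or act downstream of P2X7. Of these, 31 were tested. QKI depletion changed 16 of them (9 higher and 7 lower) and RBFOX2 depletion 15 (7 higher and 8 lower). Over all genes tested, 14.9% were called higher and 18.1% lower in siQKI cells, and 12.03% and 14.5% in siRBFOX2 cells. Their median log2 fold changes were 0.10 and 0.17, beside 0.03 and 0.01 over all genes tested. The siQKI count depended on single libraries, with 10 genes called without siCtrl replicate 1, without siCtrl replicate 3 or without siQKI replicate 1, and the split was 10 higher and 5 lower with upper-quartile rescaling or equal totals.

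**Figure D3:**
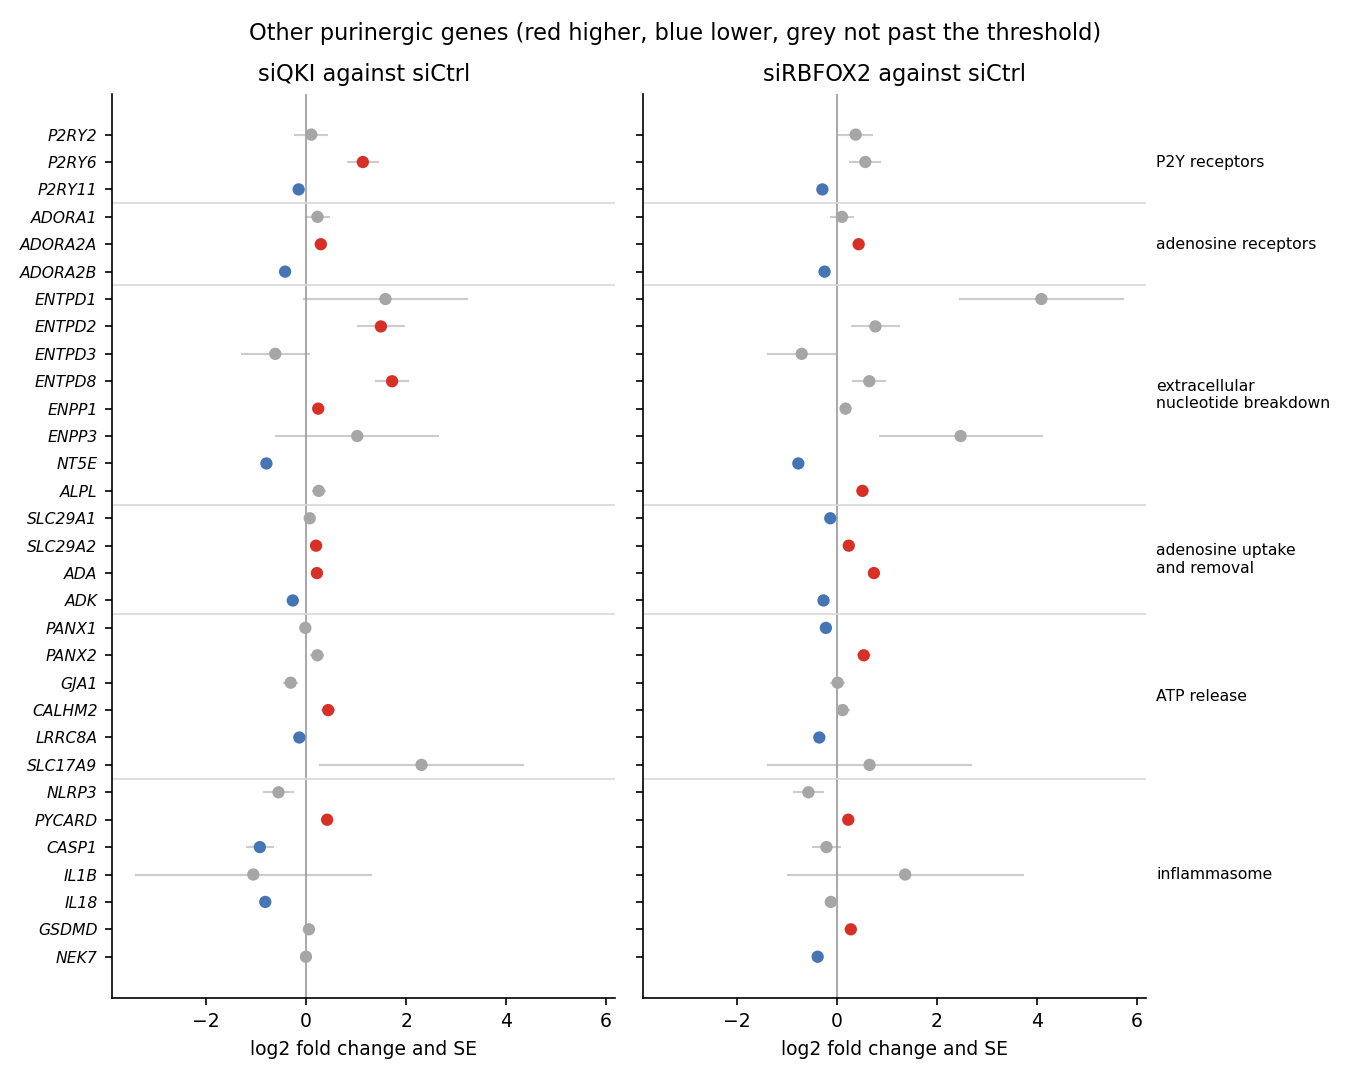
Log2 fold change and SE of the 31 tested purinergic genes outside the P2X family, by list, in siQKI (left) and siRBFOX2 (right) against the same siCtrl libraries; red genes were higher, blue genes lower and grey genes not past an adjusted p of 0.05 by limma. ENTPD8 (1.72) and ENTPD2 (1.496) show the largest called rises in siQKI, and NT5E falls in both (-0.79 and -0.78).

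Of the enzymes that break down ATP outside the cell, 8 of 9 were tested, with 3 higher and 1 lower in siQKI cells (beside 14.9% and 18.1% of all genes) and 1 higher and 1 lower in siRBFOX2 cells (beside 12.03% and 14.5%). ENTPD8, an ectonucleotidase that hydrolyses ATP, rose from 176 ± 27.5 to 576 ± 32.8 normalized counts in siQKI cells (log2 fold change 1.72, SE 0.34, limma adjusted p = 9.64e-04), and ENTPD2, a related ectonucleotidase, from 81.5 ± 54.5 to 193 ± 34.8 (1.496, SE 0.49, limma adjusted p = 0.0273). In contrast, NT5E (CD73), which makes adenosine from AMP, fell from 44631 ± 3318 to 25702 ± 1088 in siQKI and 26070 ± 1868 in siRBFOX2 cells (limma adjusted p = 9.78e-08 and 2.75e-07). ADORA2B, the low-affinity adenosine receptor, fell as well, from 39833 ± 1184 to 29745 ± 328 in siQKI and 33505 ± 1537 in siRBFOX2 cells (log2 fold change -0.42, limma adjusted p = 1.85e-06, and -0.25, limma adjusted p = 3.99e-04). Among 3 adenosine receptors tested, ADORA2A rose in both (0.29 and 0.43, limma adjusted p = 0.0357 and 0.00492) and ADORA1 gave 0.23 and 0.10, not past the threshold.

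Among the P2Y receptors, the G protein-coupled counterparts of the P2X channels, 3 of 8 were tested. In siQKI cells 1 was higher and 1 lower (beside 14.9% and 18.1% of all genes), and in siRBFOX2 cells 1 was lower (beside 14.5%). P2RY6, the UDP receptor, rose from 139 ± 56.5 to 300 ± 79.3 in siQKI cells (log2 fold change 1.13, SE 0.32, limma adjusted p = 0.0132). The row in which the files join P2RY11 with PPAN was lower in both knockdowns (-0.15 and -0.29, limma adjusted p = 0.0454 and 8.58e-04). The 2 genes of that row cannot be told apart, so the fall is not assigned to P2RY11. All 4 genes of adenosine uptake and removal were tested, with 2 higher and 1 lower in siQKI cells (beside 14.9% and 18.1% of all genes). In siRBFOX2 cells 2 were higher and 2 lower (beside 12.03% and 14.5%). ADA (adenosine deaminase) and the transporter SLC29A2 rose in both knockdowns, ADA by 0.74 in siRBFOX2 cells (SE 0.06, limma adjusted p = 5.01e-07). ADK (adenosine kinase) fell in both (limma adjusted p = 0.00135 and 0.00169), and the transporter SLC29A1 fell by 0.14 in siRBFOX2 cells (limma adjusted p = 0.00838).

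Of the genes of ATP release, 6 of 9 were tested, with 1 higher and 1 lower in siQKI cells (beside 14.9% and 18.1% of all genes) and 1 higher and 2 lower in siRBFOX2 cells (beside 12.03% and 14.5%). PANX1, a channel through which ATP leaves the cell, measured 9441 ± 368 in siCtrl and 9338 ± 70.1 in siQKI cells and fell to 8081 ± 215 in siRBFOX2 cells (log2 fold change -0.22, limma adjusted p = 0.00280). All 7 inflammasome genes were tested, with 1 higher and 2 lower in siQKI cells (beside 14.9% and 18.1% of all genes). In siRBFOX2 cells 2 were higher and 1 was lower (beside 12.03% and 14.5%). IL18, the interleukin processed by the inflammasome, fell from 25040 ± 1581 to 14196 ± 445 in siQKI cells (log2 fold change -0.82, SE 0.05, limma adjusted p = 1.85e-08), as did CASP1, its protease, from 478 ± 169 to 246 ± 70.9 (-0.93, SE 0.28, limma adjusted p = 0.0196), whereas the adaptor PYCARD rose from 28354 ± 2379 to 37908 ± 2459 in siQKI cells (0.42, limma adjusted p = 8.28e-05). In siRBFOX2 cells PYCARD rose as well (log2 fold change 0.22, SE 0.06, limma adjusted p = 0.0140). NLRP3 measured 403 ± 110 in siCtrl and 277 ± 87.1 in siQKI cells, not past the threshold (limma adjusted p = 0.209).

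Between the lines, 26 of the 32 purinergic genes that passed the filter did not overlap, 13 higher and 13 lower in HPAF-II, beside 63.7% of all genes. The counts were again 13 and 13 without HPAF-II replicate 3, beside 75.4%. P2RY2, the ATP and UTP receptor of epithelia, measured 0.824 ± 0.313 rescaled counts in PANC-1 and 37.8 ± 8.73 in HPAF-II (log2 ratio 5.55), and P2RY1, an ADP receptor, 0.0210 ± 0.00921 and 1.74 ± 0.255. ENTPD2 (log2 ratio 4.54) and the ATP release channel gene CALHM2 (2.53) were higher as well. The vesicular nucleotide transporter gene SLC17A9 was above 0 in 1 of 3 PANC-1 siCtrl libraries and measured 1.56 ± 1.17 in HPAF-II, and 0.905 without HPAF-II replicate 3, the highest of its group. ACP3, an acid phosphatase that makes adenosine, was listed at 0 in PANC-1 siCtrl and measured 4.13 ± 1.63 in HPAF-II. Lower in HPAF-II were ADORA2A (log2 ratio -4.32), SLC29A1 (-2.92), ADORA2B (-2.80) and PYCARD (-2.77), and ALPL, a phosphatase, measured 1.38 ± 0.0529 in PANC-1 siCtrl and 0.0433 ± 0.0381 in HPAF-II, with 1 HPAF-II library at 0. NLRP3, at 1.17 ± 0.309 in PANC-1 siCtrl, was listed at 0 in HPAF-II. All 12 genes named here for the lines did not overlap without HPAF-II replicate 3 either, and the HPAF-II mean moved by over 1.5 times in 1 of them, SLC17A9.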

How the data were processed

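The 7 members and the purinergic and marker lists were chosen with earlier results of these data known. The deposited values are a signal: per the submitters' processing notes, the authors aligned the reads to hg38 with STAR 2.7.5a and, for the FAST DB genes of the files, divided the counts by DESeq2 size factors, in a table of 9 PANC-1 and a table of 3 HPAF-II libraries. Each table held 48114 genes, 21404 without a symbol. The paper's software list names another STAR release and featureCounts without saying for which data, and the counting settings and use of strand are not given in the sources used here. All values were whole multiples of a library's step (tolerance 0.01), but 82.1% to 84.8% of the values of 1 to 30 steps were multiples of 3, so that a step is not a fragment and no count model was used. The PANC-1 libraries held 292248837 to 376192091 steps and the HPAF-II libraries 226697015 to 309720537, with size factors of 0.877 to 1.15 and 0.810 to 1.09, and precision was taken from the replicates.

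For the knockdowns, limma 3.58.1 was run in R 4.3.3 (functions lmFit, contrasts.fit and eBayes, trend on) with log2(normalized count + 1), in 1 fit of 9 libraries without a block, for 22544 genes that averaged 10 or more. P-values were adjusted over these genes by the Benjamini-Hochberg method, threshold 0.05. HPAF-II and PANC-1 libraries were compared without a test, on counts rescaled to a total of 1000000, with a pseudocount of 0.01. Exon lengths, strands and motif sites came from GENCODE release 29 on GRCh38. Exon lengths were taken within the intervals of the files, and motif sites over the whole longest transcript. The shares with a motif used 1 transcript for each of 19627 genes. Neighbors were genes within 5 kb. From the purinergic lists, genes were named that passed the threshold with a fold of at least 1.5 and a mean of at least 50, that had the highest PANC-1 siCtrl mean of their list, or that were among the 6 highest or 6 lowest in HPAF-II without overlap. ADORA1, SLC29A2, ADK and the genes next to members were named after their values were seen, as was the change of ADORA2A and NLRP3 with the knockdowns. Python 3.11.15, numpy 2.4.6, pandas 2.3.3 and matplotlib 3.10.9 were used. Alternatives varied the pseudocount, filter, scaling, trend, threshold, block and each library.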

Additional observations from a re-analysis of the deposited data

How the results depend on the processing

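No alternative turned the direction of a P2X difference whose libraries did not overlap. Of the alternatives to counts of genes or members, 92 stayed within 1.5 times the reported count and 12 did not. With a fold of at least 1.5 required, siQKI calls went from 7432 to 2035 and siRBFOX2 calls from 5985 to 1288, and purinergic calls to 6 (siQKI) and 2 (siRBFOX2). Without the low-value filter, a setting that lets genes near 0 enter the fit, siRBFOX2 calls were 3836 and siQKI purinergic calls 9. At an adjusted p under 0.01, siRBFOX2 calls were 3854 and siQKI purinergic calls 6. Leaving out 1 library at a time gave 10 to 16 siQKI purinergic calls and 2 to 4 P2X members apart in siQKI, with 4 without siCtrl replicate 1. These 4 were P2RX2, P2RX5, P2RX6 and P2RX7. Leaving out a library can only keep or raise the number of members apart. The cause of the shifts in the calls was not tested.

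Replicate numbers did not pair the libraries (same-number correlations of deviations of -0.0325 to 0.0235, other pairs -0.0333 to 0.0384). With a replicate block, 7336 genes were called in siQKI and 5891 in siRBFOX2 cells, with 15 purinergic genes in each, and the log2 differences of the members were the same by construction. P2RX6 differences fell to 3.38 and 1.84 with a pseudocount of 10. P2RX7 moved from 1.69 to 5.93 in siQKI cells with the pseudocount. The P2RX2 difference in siRBFOX2 cells changed sign when single libraries were left out (-0.25 to 0.11). With deposited values not rescaled, the HPAF-II log2 ratios were 2.19 for P2RX4 and -0.44 for P2RX5. P2RX6 and P2RX7 are near the floor, and the number of fragments behind them is unknown.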
